A study of Mus musculus with 20 samples.

Results

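Levels of 9 genes of the Hedgehog signalling pathway were followed through mouse liver mesenchymal cells taken from the tissue and grown in culture. The genes were chosen by symbol as core components of the pathway: the receptors and ligand-binding proteins Ptch1, Hhip, Boc and Gas1, the signal transducer Smo, the inhibitor Sufu and the transcription factors Gli1, Gli2 and Gli3. All 9 were present among the 24848 genes of each deposited table, and all 9 passed the filter on low counts that left 14751 genes for testing. In brief, Gli1, Gli2, Boc and Gas1 were highest in fresh portal cells and far lower after culture, and Hhip was highest in fresh stellate cells. Ptch1 had its highest mean in fresh stellate cells as well, but its libraries there overlapped those of fresh portal cells. Sufu, Gli3 and Smo had the narrowest spans between group means.

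Hedgehog proteins are secreted, lipid-modified signals. Without ligand the membrane receptor Ptch1 holds the transducer Smo in check, and the Gli proteins, above all Gli3, are processed into repressors. When ligand binds Ptch1, Smo is released and moves into the primary cilium, the Gli proteins are freed from Sufu, and target genes are transcribed. Boc and Gas1 are co-receptors that help ligand reach Ptch1, whereas Hhip binds ligand and withholds it. Gli1, Ptch1 and Hhip are themselves textbook targets of the pathway, and in liver the pathway has been studied above all for its part in the activation of mesenchymal cells during injury.

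All cells came from livers of C57BL/6 mice. Portal mesenchymal stem cells (PMSC) were profiled fresh and as the myofibroblasts they formed in culture, called PMSC-MF-3d after 3 days and PMSC-MF-7d after 7 days. Hepatic stellate cells (HSC), the vitamin A-storing pericytes of the liver sinusoids, were profiled fresh and as cultured myofibroblasts (HSC-MF-7d), whose titles say 7 days while the series description says 3 days. PMSC and HSC are called fresh because the labels name no culture for them. Each of the 5 groups held 4 libraries, and the labels name no transgene, injury model or treatment, no age or sex, and no tie between a library and an animal or culture. The p-values therefore measure the spread between these libraries, which may be in part technical.

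Summed expected counts ranged from 11810532 to 26675589 per library. The labelled cell types were described on marker lists. These lists were chosen with earlier results of these data known, so they are no independent check of the labels. Of the portal mesenchymal markers, 10 of 10 were higher in PMSC than in HSC, beside 33.6% of all tested genes. Of the stellate markers, 8 of 10 were higher in HSC, beside 40.1% of all tested genes, and the other 2 did not pass the test. Summed myofibroblast markers (6 genes) were 8213 to 11606 CPM in fresh PMSC and 254 to 678 CPM in fresh HSC. They were 15352 to 16968 and 22295 to 25243 CPM after 3 and 7 days of portal culture. In HSC-MF-7d they were 9562 to 11337 CPM, which overlapped fresh PMSC. The stellate sum was 2009 to 2549 CPM in fresh PMSC, above the 1498 to 1733 CPM of HSC-MF-7d. The fresh HSC libraries also held markers of other cells. Their summed endothelial markers (8 genes) reached 5065 to 5966 CPM (counts-per-million), against 61.9 to 177 in fresh portal cells, 7.57 to 11.3 and 3.68 to 4.14 after 3 and 7 days of portal culture and 19.8 to 26.8 after stellate culture. Their summed hepatocyte markers (8 genes) reached 3970 to 16667 CPM and their macrophage markers (8 genes) 1956 to 7049 CPM, against 1207 to 2081 and 25.9 to 34.8 CPM in PMSC. No marker of these 3 lists was at 0 in all 4 HSC libraries. Over all genes, the median log2 fold change moved by over 0.1 with library totals in place of trimmed means of M-values (TMM): from −0.10 to −0.44 between the fresh lineages (PMSC over HSC), from −0.07 to 0.41 and from −0.00 to 0.43 after 3 and 7 days of portal culture, from −0.03 to 0.08 after stellate culture, and from 0.10 to 0.44 when the stellate culture change was subtracted from the portal one. The share of higher genes among all calls moved with it, from 45.6% to 33.3%, 47.5% to 61.7%, 49.4% to 63.5%, 48.4% to 53.3% and 51.8% to 66.0% in the same order.

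On the GRCm38.p6 assembly, on which mm10 is based, Gli1 lies at chr10:127329882-127341579, Gli2 at chr1:118834061-119054405 and Gli3 at chr13:15463723-15730026. Ptch1 lies at chr13:63508328-63573460, Smo at chr6:29735497-29761366 and Hhip at chr8:79965850-80058060. Sufu lies at chr19:46396896-46488804, Boc at chr16:44485045-44558870 and Gas1 at chr13:60174405-60177535. These are whole gene spans, and the expected counts summarise the annotated transcripts of each, which number 2 for Ptch1 and Sufu and 1 for the other genes.

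The promoters of Ptch1 and Hhip are shown because both genes restrain the ligand signal and both fell in portal and in stellate culture. The 250 bases upstream of a transcript start were read from RefSeq promoter sequences of GRCm38.p6, with the GC box (GGGCGG, or CCGCCC on the other strand) in capitals. The Ptch1 stretch is chr13:63565736-63565985 and the Hhip stretch is chr8:80058009-80058258, both on the minus strand and upstream of a start inside the gene's span. The Ptch1 stretch lies wholly within that gene's span, and the Hhip stretch runs across the end of its gene's span at 80058060.
Ptch1: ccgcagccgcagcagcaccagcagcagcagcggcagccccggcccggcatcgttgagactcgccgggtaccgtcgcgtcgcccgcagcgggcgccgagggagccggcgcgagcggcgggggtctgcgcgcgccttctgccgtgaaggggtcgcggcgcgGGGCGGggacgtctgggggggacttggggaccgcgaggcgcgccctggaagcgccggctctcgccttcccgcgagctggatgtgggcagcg
Hhip: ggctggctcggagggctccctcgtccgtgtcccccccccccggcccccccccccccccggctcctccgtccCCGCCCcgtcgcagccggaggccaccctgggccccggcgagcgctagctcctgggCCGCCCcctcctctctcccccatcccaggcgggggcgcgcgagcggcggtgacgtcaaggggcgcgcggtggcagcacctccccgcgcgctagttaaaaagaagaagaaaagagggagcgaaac
Both stretches were rich in G and C, at 78.4% for Ptch1 and 76% for Hhip, and held 1 and 2 GC boxes. Promoters were matched for 7 of the 9 genes, all but Gli1 and Boc, in windows that ran from 250 bases before to 50 bases after the start. A GC box was present in 6 of these 7 windows, all but that of Smo, and in 35.7% of all 32851 windows of this length. The GLI consensus GACCACCCA (TGGGTGGTC on the other strand) was in none of the 7 windows and in 0.253% of all windows. With up to 1 mismatch it was again in none of the 7, against 6.74% of all windows. At such low background shares, finding none in 7 windows does not set these genes apart. Sites outside the windows were not searched.

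**Figure D1:**
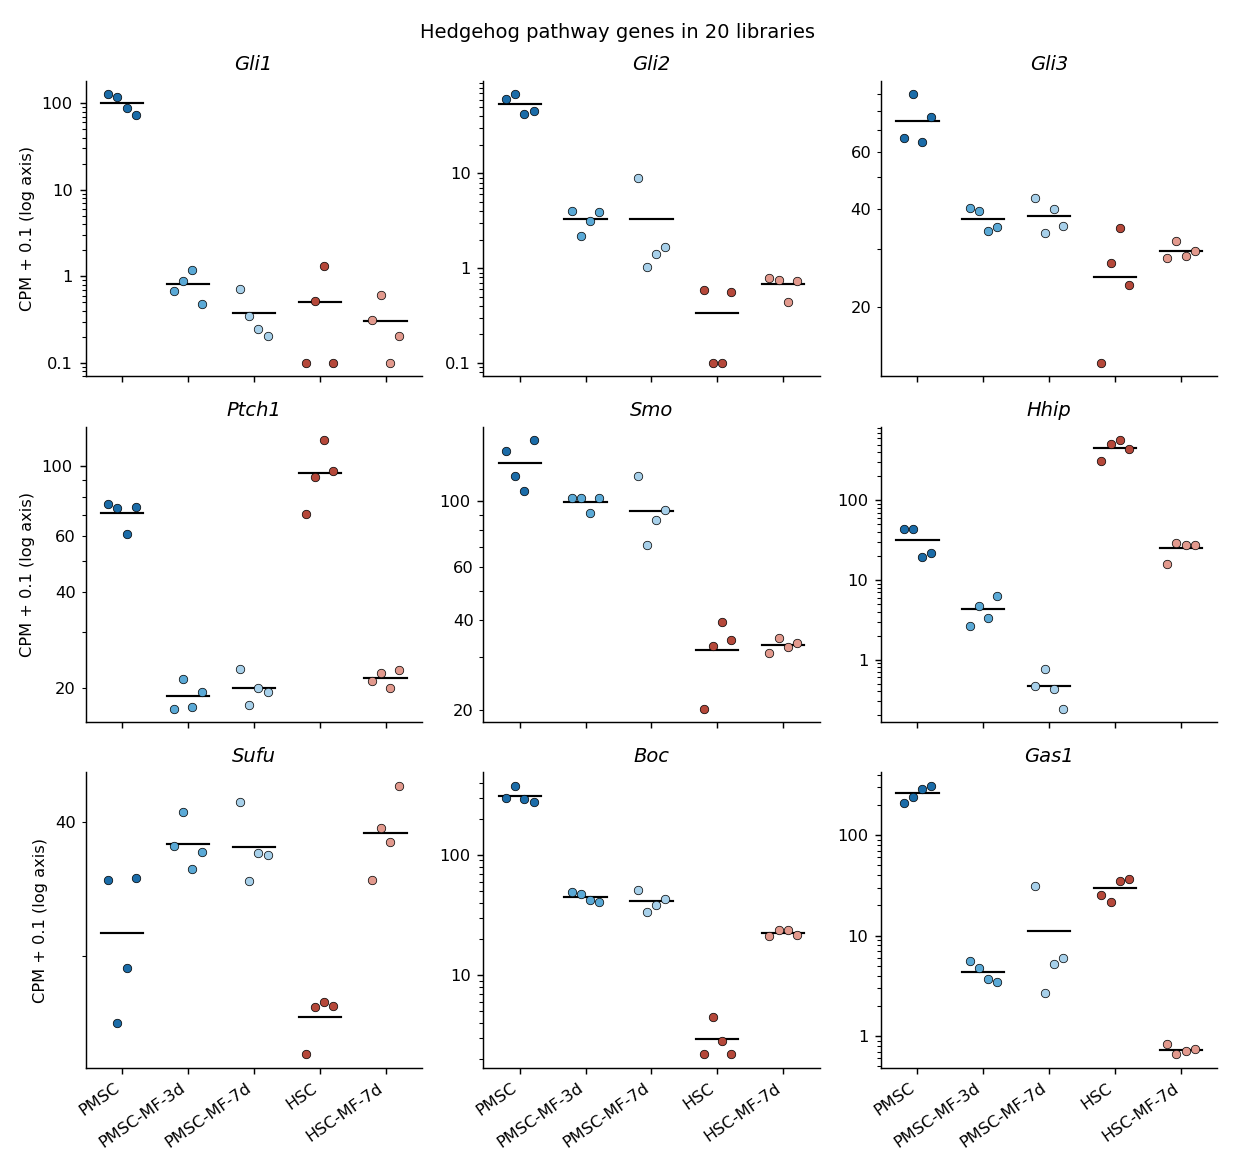
CPM plus 0.1 on a log axis for each Hedgehog gene in each of the 20 libraries. Points are libraries in the order of replicates 1 to 4, bars are group means, and the axes differ between genes. Gli1, Gli2, Boc and Gas1 stand highest in all 4 PMSC libraries, and Hhip in all 4 HSC libraries.

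Values per library are given as CPM on TMM-scaled library sizes, in the order of replicates 1 to 4. Log2 fold changes carry their standard error (SE) and a p-value from edgeR's quasi-likelihood test, adjusted over all 14751 genes by the Benjamini-Hochberg method and called under 0.05. In these bulk samples, fewer cells of a type and less RNA per cell cannot be told apart.

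Hhip, the decoy that binds Hedgehog ligand at the cell surface, had the widest span among the ligand-binding proteins and was highest in the fresh stellate libraries. Its levels in HSC were 314, 506, 568 and 439 CPM, and in PMSC they were 43.8, 43.1, 19.1 and 21.7 CPM. The lowest HSC library thus stood well above the highest PMSC library, and Hhip was 14.2-fold higher in HSC (log2 PMSC over HSC −3.83, SE 0.31, adjusted p = 1.4e-09). In stellate culture it fell to 15.9, 28.8, 27.2 and 27.2 CPM, an 18.4-fold fall with no overlap (log2 −4.20, SE 0.32, adjusted p = 3.6e-10). In portal culture the fall came in steps. After 3 days Hhip stood at 2.55, 4.61, 3.26 and 6.21 CPM (log2 −2.94 against PMSC, SE 0.32, adjusted p = 6.4e-08), and after 7 days at 0.362, 0.652, 0.330 and 0.141 CPM. The step from 3 to 7 days was 11.3-fold (log2 −3.49, SE 0.46, adjusted p = 1.1e-05), and every PMSC-MF-7d library was below every PMSC-MF-3d library. The whole portal fall was 86.7-fold (log2 −6.44, SE 0.43, adjusted p = 5.3e-11).

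Cultured stellate cells thus kept far more Hhip than cultured portal cells, although both had fallen. HSC-MF-7d was 67.0-fold above PMSC-MF-7d (log2 PMSC-MF-7d over HSC-MF-7d −6.07, SE 0.43, adjusted p = 1.1e-09) and 5.95-fold above PMSC-MF-3d (log2 −2.57, SE 0.32, adjusted p = 1.3e-06). Whether the portal fall was steeper than the stellate fall depended on the portal day compared. With PMSC-MF-7d the difference of the falls was −2.23 on the log2 scale (SE 0.55, adjusted p = 0.0017), and with PMSC-MF-3d, the day the series description gives for the stellate culture, it was 1.26 in the other direction (adjusted p = 0.014). It also turned to 1.30 with limma on log2(TPM + 1) (adjusted p = 0.0015), and with log2(TPM + 0.1) it was −0.80 and not called (adjusted p = 0.12). The deposited TPM scale the counts by transcript length and to a common total per library. Both TPM fits used these values and differed in the added constant, so the sign changed with that constant. Every PMSC-MF-7d library held 0.04 to 0.16 TPM of Hhip, well below the larger constant of 1. Mean Hhip TPM without a constant dropped from 5.89 to 0.0975 between PMSC and PMSC-MF-7d. The stellate means dropped from 111 to 6.54, which was the less steep fall.

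Hhip moved with markers of other cells as well as of stellate cells. Endothelial markers were lower in culture for 8 of 8 genes in both lineages, as were 10 of 10 stellate markers, and the part of either in the Hhip differences was not tested. Among the HSC libraries, replicate 1 had the lowest Hhip and the lowest stellate marker sum (19125 CPM), and replicate 3 had the highest of both (29480 CPM). Their endothelial sums were close to each other, at 5777 and 5872 CPM. HSC replicates 2 and 4 had stellate sums of 25182.5 and 24347.5 CPM and endothelial sums of 5065 and 5966 CPM. Among the PMSC libraries, in the order of replicates, the endothelial sums were 177, 115, 130 and 61.9 CPM and the stellate sums 2549, 2166, 2009 and 2470 CPM. PMSC replicates 1 and 2 had the higher Hhip levels. After 7 days of portal culture, Hhip was near 0 and the endothelial sum was 3.68 to 4.14 CPM, with 1 of 8 of its markers at 0 in all 4 libraries.

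**Figure D2:**
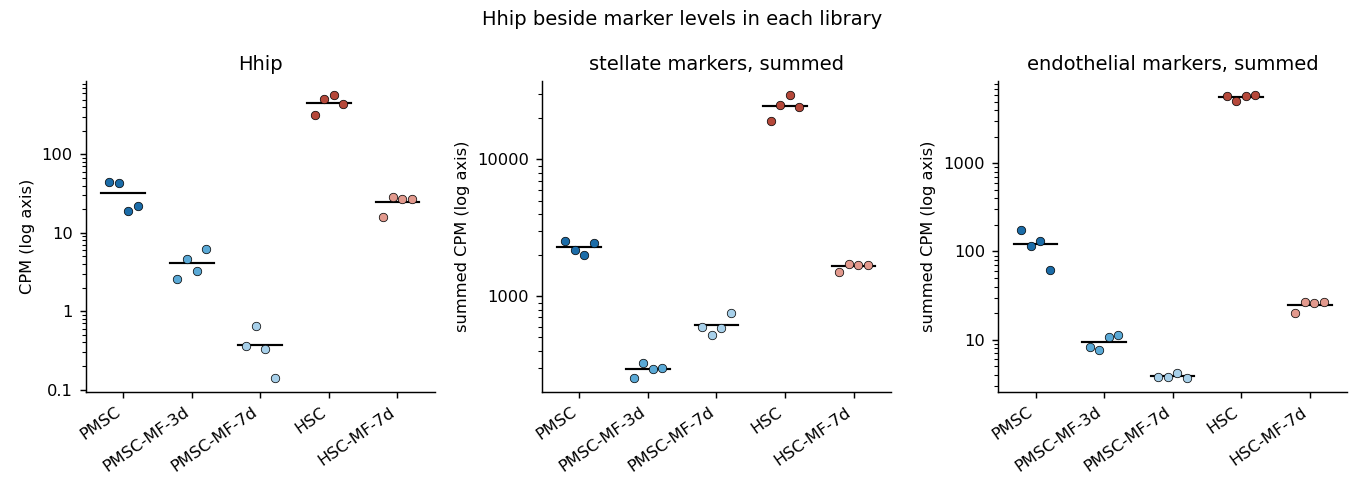
Hhip (left), the summed stellate markers (middle, 10 genes) and the summed endothelial markers (right, 8 genes) in each library, in CPM on log axes, with bars for group means. Hhip, the stellate sum and the endothelial sum are all highest in the 4 HSC libraries, where the endothelial sum is 5065 to 5966.

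Ptch1, the Hedgehog receptor that restrains Smo, differed little between the fresh lineages and fell in both cultures. PMSC held 75.5, 73.6, 60.9 and 73.8 CPM, and HSC held 70.6, 92.4, 120.2 and 96.4 CPM, so that the ranges overlapped. HSC was 1.34-fold higher (log2 PMSC over HSC −0.42, SE 0.13, adjusted p = 0.0058), a call that was lost when the groups were fitted alone (−0.33, adjusted p = 0.076). After culture the levels came together. PMSC-MF-3d held 17.1, 21.3, 17.3 and 19.3 CPM, PMSC-MF-7d held 22.8, 17.5, 19.9 and 19.3 CPM, and HSC-MF-7d held 20.98, 22.2, 19.9 and 22.7 CPM. The portal fall was already present at 3 days (log2 −1.92, SE 0.13, adjusted p = 5.8e-11) and was 3.57-fold at 7 days (log2 −1.84, SE 0.13, adjusted p = 1.2e-10). The stellate fall was 4.42-fold (log2 −2.14, SE 0.13, adjusted p = 1.8e-11). No cultured library reached the lowest fresh one. Neither step between cultured groups was called, with −0.11 (SE 0.13) for the portal less the stellate culture at the titled 7 days. The difference of the 2 falls was 0.31 (SE 0.18, adjusted p = 0.15), and it passed with library totals (0.65, adjusted p = 0.0036), with both TPM fits (0.63 and 0.65, adjusted p = 0.0083 and 0.012) and without HSC replicate 1 (0.44, adjusted p = 0.021).

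Boc, an immunoglobulin-family co-receptor, moved in opposite directions in the 2 cultures. PMSC had 300.3, 375, 294 and 274 CPM and HSC only 2.11, 4.35, 2.75 and 2.09 CPM, a 109-fold difference (log2 6.77, SE 0.20, adjusted p = 1.3e-15). In portal culture Boc fell to 49.2, 47.3, 42.4 and 40.5 CPM at 3 days and stood at 51.3, 33.5, 38.2 and 42.6 CPM at 7 days (log2 −2.91 against PMSC, SE 0.16, adjusted p = 2.3e-12). In stellate culture it rose to 20.98, 23.5, 23.5 and 21.7 CPM, a 7.89-fold rise (log2 2.98, SE 0.19, adjusted p = 2e-11). The difference of the changes was −5.89 (SE 0.24, adjusted p = 4.1e-13). The gap between the lineages narrowed to 1.85-fold at the titled 7 days, still with every PMSC-MF-7d library above every HSC-MF-7d library (log2 0.89, SE 0.15, adjusted p = 9.4e-05).

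Gas1, a membrane-anchored co-receptor, was abundant in fresh portal cells and fell in both cultures. Its levels were 209, 239, 286 and 309 CPM in PMSC and 25.0, 21.6, 35.2 and 36.9 CPM in HSC (log2 3.13, SE 0.48, adjusted p = 8.2e-06). HSC-MF-7d retained 0.736, 0.557, 0.613 and 0.637 CPM, a 46.2-fold fall (log2 −5.53, SE 0.66, adjusted p = 3.2e-07). PMSC-MF-3d retained 5.44, 4.61, 3.63 and 3.35 CPM, a 61.1-fold fall (log2 −5.93, SE 0.56, adjusted p = 7.3e-09). PMSC-MF-7d held 30.7, 2.57, 5.13 and 5.90 CPM, so replicate 1 stood apart from the other 3 libraries. The rise from 3 to 7 days that the test called (log2 1.38, SE 0.50, adjusted p = 0.036) rested on that library, since without it the value was 0.10 (adjusted p = 0.83). It was also not called with library totals, without a filter or in either TPM fit. Against PMSC the 7-day fall was −4.55 (SE 0.51, adjusted p = 1.2e-07) and −5.81 without replicate 1. Against HSC-MF-7d the PMSC-MF-7d level was 4.11 higher on the log2 scale (SE 0.67, adjusted p = 5e-05) and 2.84 higher without replicate 1, which left the call in place. The difference of the culture changes was 0.98 (SE 0.86, adjusted p = 0.34), and −0.30 without that library.

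Smo, the transmembrane protein that passes the signal inward, kept its lineage difference through culture. PMSC had 147, 121, 108 and 159.7 CPM and HSC had 20.1, 32.6, 39.3 and 34.2 CPM, without overlap (log2 2.09, SE 0.18, adjusted p = 2.5e-09). PMSC-MF-3d had 102, 102, 91.0 and 102 CPM, and PMSC-MF-7d had 121, 70.9, 86.1 and 93.2 CPM. HSC-MF-7d had 30.9, 34.7, 32.4 and 33.4 CPM, within the range of HSC (log2 0.06, SE 0.17, adjusted p = 0.77). All PMSC-MF-7d libraries were therefore above all HSC-MF-7d libraries, by 2.82-fold on average (log2 1.497, SE 0.17, adjusted p = 7.3e-07). The portal culture change of Smo was small, and its call depended on the scaling and on single libraries. It was −0.43 at 3 days (SE 0.17, adjusted p = 0.025) but 0.08 with library totals and −0.03 in either TPM fit, none of them called. Of 16 alternatives, 9 lost the 3-day call and 1 turned its direction, and the call was lost without PMSC replicate 1 or 4, without any single PMSC-MF-3d library (adjusted p between 0.054 and 0.095 for these 6) and without a filter (adjusted p = 0.059). At 7 days it was −0.53 (SE 0.17, adjusted p = 0.0075), and −0.07 with library totals and −0.06 in either TPM fit. Mean TPM of Smo were 58.8 in fresh portal cells and 56.6 and 56.8 after 3 and 7 days of culture. The difference of the culture changes (−0.59, SE 0.24, adjusted p = 0.041) was lost under 18 of its 25 alternatives.

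Sufu, the cytoplasmic protein that holds Gli factors back, was the steadiest of the genes. Fresh PMSC had 35.2, 25.9, 29.1 and 35.4 CPM and fresh HSC had 24.2, 26.8, 27.1 and 26.9 CPM. PMSC-MF-3d had 37.9, 40.8, 36.1 and 37.4 CPM, PMSC-MF-7d had 41.6, 35.1, 37.3 and 37.1 CPM, and HSC-MF-7d had 35.2, 39.3, 38.2 and 43.1 CPM. In stellate culture it rose 1.48-fold without overlap (log2 0.57, SE 0.10, adjusted p = 3.3e-05). In portal culture it was 1.21-fold higher at 3 days (log2 0.27, SE 0.10, adjusted p = 0.016), but not with size factors of the DESeq2 kind (0.21, adjusted p = 0.059) or without PMSC replicate 2 (0.15, adjusted p = 0.15). At 7 days it was again higher (log2 0.27, SE 0.10, adjusted p = 0.019), but not with those size factors (0.17, adjusted p = 0.12) or without PMSC replicate 2 (0.10, adjusted p = 0.33) or replicate 3 (0.23, adjusted p = 0.051). The fresh difference (log2 PMSC over HSC 0.26, SE 0.10, adjusted p = 0.024) turned to −0.08 with library totals and to −0.13 and −0.14 in the TPM fits. It was also lost without PMSC replicate 1 (0.20, adjusted p = 0.092), PMSC replicate 4 (0.20, adjusted p = 0.096) or HSC replicate 1 (0.22, adjusted p = 0.08).

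Gli1, the Gli activator that is itself a classical target gene, was expressed above 2 CPM in fresh portal cells alone. PMSC held 126, 118, 87.2 and 72.9 CPM. PMSC-MF-3d held 0.571, 0.787, 1.10 and 0.376 CPM, and PMSC-MF-7d held 0.615, 0.245, 0.147 and 0.106 CPM. HSC held 0, 0.417, 1.21 and 0 CPM, and HSC-MF-7d held 0.210, 0.507, 0 and 0.106 CPM. The PMSC libraries were thus separated from the other 16 by a wide gap, while the other 4 groups overlapped. The fall in portal culture was 141-fold at 3 days (log2 −7.14, SE 0.50, adjusted p = 9.3e-11) and 355-fold at 7 days (log2 −8.47, SE 0.56, adjusted p = 3.9e-11), or −9.20 without PMSC-MF-7d replicate 1. The fresh lineages differed 232-fold (log2 7.86, SE 0.55, adjusted p = 1.7e-10), a size set by few reads, since the 4 HSC libraries held 29 rounded reads in all and the value was 9.39 without HSC replicate 3. None of the neighbours in the order of the other 4 groups differed by the test, and the change in stellate culture was −0.95 (SE 0.93, adjusted p = 0.37), or 0.61 without HSC replicate 3 (adjusted p = 0.64).

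Gli2, the main full-length activator in most Hedgehog-responding cells, followed Gli1 in portal cells with more left after culture. PMSC had 60.4, 68.1, 42.1 and 45.9 CPM and PMSC-MF-3d had 3.92, 2.10, 3.04 and 3.84 CPM, a 16.8-fold fall (log2 −4.07, SE 0.56, adjusted p = 1.7e-06). PMSC-MF-7d had 8.94, 0.938, 1.32 and 1.59 CPM, with replicate 1 again apart from the other 3. From 3 to 7 days the log2 change was −0.01 (SE 0.53), and without replicate 1 it was −1.32 and called (adjusted p = 0.014). Against PMSC the 7-day value was −4.07 (SE 0.56, adjusted p = 1.8e-06), or −5.36 without replicate 1. HSC had 0.483, 0, 0 and 0.458 CPM and HSC-MF-7d had 0.684, 0.659, 0.341 and 0.637 CPM, levels at the low end of detection that did not differ by the test (log2 1.36, adjusted p = 0.22, and 2.04 without HSC replicate 1). The fresh difference was 233-fold (log2 7.87, SE 0.77, adjusted p = 2e-08), or 8.52 without HSC replicate 1, and the 4 HSC libraries held 15 rounded reads in all. PMSC-MF-7d exceeded HSC-MF-7d by 2.43 (SE 0.67, adjusted p = 0.0053), and by 1.12 without PMSC-MF-7d replicate 1 (adjusted p = 0.059). PMSC-MF-3d exceeded HSC-MF-7d by 2.44 (SE 0.67, adjusted p = 0.0043).

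Gli3, best known as the repressor of the family, had at least 13.3 CPM in every library. PMSC had 65.7, 89.7, 64.2 and 76.7 CPM and HSC had 13.3, 27.1, 34.9 and 23.3 CPM (log2 1.59, SE 0.19, adjusted p = 3.4e-07). PMSC-MF-3d had 40.0, 39.4, 34.0 and 35.1 CPM, PMSC-MF-7d had 43.2, 33.6, 40.0 and 35.3 CPM, and HSC-MF-7d had 28.1, 31.7, 28.5 and 29.6 CPM. The portal fall was 1.997-fold at 3 days (log2 −0.998, SE 0.19, adjusted p = 6.5e-05) and 1.95-fold at 7 days (log2 −0.96, SE 0.19, adjusted p = 9.8e-05). The stellate change of 0.26 (SE 0.19, adjusted p = 0.22) was not called, and it was 0.49 and called without HSC replicate 3 (adjusted p = 0.017). The cultured lineages differed by 0.37 at the titled 7 days (SE 0.19, adjusted p = 0.11), with no overlap of the libraries and a call when the groups were fitted alone (0.36, adjusted p = 0.0047).

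The balance of the 3 factors can be compared on the deposited TPM, which are scaled per transcript length. Gli1 made up 62.4% ± 4.82 (SD, n = 4) of the summed TPM of Gli1, Gli2 and Gli3 in PMSC, with 56.3% to 67.9% in the 4 libraries. After 3 and 7 days of portal culture it made up 3.96% ± 1.86 and 1.45% ± 0.880, and in fresh and cultured stellate cells 2.80% ± 3.64 and 1.51% ± 1.52. The last 2 means each rested on 1 library, and were 1.18% without HSC replicate 3 and 0.832% without HSC-MF-7d replicate 2. PMSC did not overlap HSC or the portal cultures (exact permutation test, two-sided, p = 0.029 each, adjusted p = 0.043 over 12 tests). Here 0.029 is the smallest p that this test can give for 4 against 4 libraries. The share was chosen after the values were seen, so these p-values restate the lack of overlap and add no support. Outside fresh PMSC, Gli3 was the leading factor, with 86.5% and 90.3% of the sum after 3 and 7 days of portal culture and 95.5% and 96.1% in fresh and cultured stellate cells, against 19.8% in fresh portal cells. The summed Gli TPM itself was 76.6 ± 14.0 in fresh portal cells, 11.2 ± 0.581 and 11.995 ± 2.95 after 3 and 7 days of their culture, and 6.84 ± 2.72 and 8.73 ± 0.616 in fresh and cultured stellate cells (SD, n = 4 each).

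**Figure D3:**
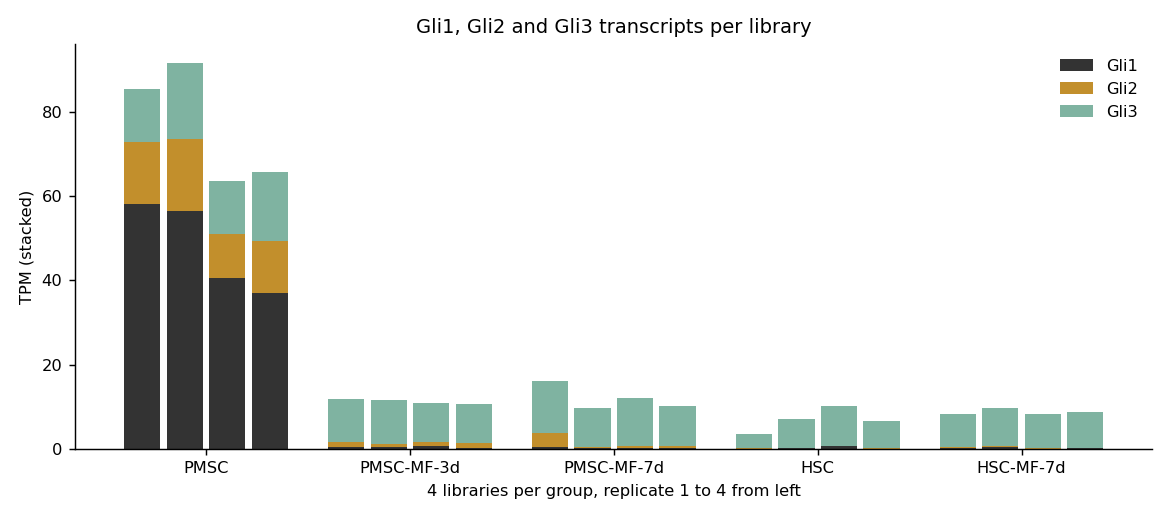
Deposited TPM of Gli1, Gli2 and Gli3 stacked for each of the 20 libraries, on a linear axis from 0. The PMSC bars reach 63.7 to 91.6 and are mostly Gli1, while the bars of the other groups stay at 16.2 or less and are mostly Gli3.

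The receptor pair shifted as well. The TPM of Ptch1, the inhibitor, over that of Smo, its target, had a median of 1.56 in HSC (range 1.49 to 1.87), and HSC was the group in which Ptch1 exceeded Smo. The median was 0.286 in fresh portal cells (0.245 to 0.322), 0.101 after 3 days of their culture (0.0889 to 0.111) and 0.116 after 7 days (0.1003 to 0.131), and it was 0.350 in cultured stellate cells (0.326 to 0.361). On the log2 scale the fresh lineages differed by −2.51 (PMSC less HSC). The ratio fell by 1.30 from PMSC to PMSC-MF-7d and by 2.22 from HSC to HSC-MF-7d, and PMSC-MF-7d lay below HSC-MF-7d by 1.59. Each of these groups was free of overlap with its partner (exact permutation test, two-sided, p = 0.029, adjusted p = 0.043 over the same 12 tests). The ratio of Ptch1 to Smo was also chosen after the values were seen, so these p-values only restate the lack of overlap. Being a ratio within a library, the Ptch1 to Smo ratio does not change with the scaling of libraries.

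Across genes, again on TPM, the leading Hedgehog transcripts of PMSC were Gas1 at 148 ± 30.5, Boc at 121 ± 16.7, Smo at 58.8 ± 12.1 and Gli1 at 48.0 ± 10.8 (SD, n = 4). Gas1 stood at the 93.1 percentile of tested genes there and Gli1 at the 81.2 percentile. In HSC the leading transcript was Hhip at 111 ± 27.9, at the 89.5 percentile, followed by Ptch1 at 28.9 ± 6.95 and Gas1 at 22.05 ± 6.42. After culture Smo led in portal cells, at 56.6 ± 2.35 after 3 days and 56.8 ± 14.1 after 7 days. In HSC-MF-7d, Sufu at 21.1 ± 1.83 and Smo at 20.4 ± 1.10 led. The 9 genes summed to 439 ± 34.1 TPM in fresh portal cells, to 119 ± 5.25 and 127 ± 34.8 after 3 and 7 days of their culture, and to 202 ± 47.0 and 76.7 ± 5.38 in fresh and cultured stellate cells.

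Ordered by group mean CPM, most genes had neighbours that the test did not separate. Hhip ran from HSC through PMSC, HSC-MF-7d and PMSC-MF-3d to PMSC-MF-7d, and PMSC and HSC-MF-7d were the neighbours not told apart (0.37, SE 0.29, adjusted p = 0.24). Ptch1 was called between HSC and PMSC and between PMSC and HSC-MF-7d (1.73, SE 0.13, adjusted p = 3.2e-10), and the 3 cultured groups were not told apart. Boc had PMSC first and HSC last, and only its 2 portal cultures were not told apart. Gas1 was called at each step, of which that between the portal cultures rested on PMSC-MF-7d replicate 1. Smo and Gli2 were called between PMSC and the portal cultures and between these and the stellate groups, Gli1 between PMSC and the rest, and Gli3 between PMSC and PMSC-MF-7d alone. The Smo step from PMSC to PMSC-MF-3d was lost or turned under most alternatives. The Gli2 step from PMSC-MF-7d to HSC-MF-7d was not called without PMSC-MF-7d replicate 1, as given above. Sufu was called between PMSC-MF-7d and PMSC and between PMSC and HSC, calls that depended on the processing as given above.

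Counted by comparison, 7 of the 9 genes were higher and 2 lower in PMSC than in HSC, where 33.6% of all tested genes were called higher and 40.1% lower. Over the 9 genes the median log2 fold change was 2.09, against −0.10 for all genes. At 3 days of portal culture 1 was higher and 8 lower than in PMSC, with 37.2% and 41.1% of all genes called higher and lower, and a median of −2.79 against −0.07. At 7 days the counts against PMSC were the same, 1 higher and 8 lower, beside 38.1% and 39.0% of all genes, with a median of −2.91 against −0.00. These 2 comparisons share the PMSC libraries. The portal mesenchymal markers fell in the same comparisons, with 8 of 10 lower and 1 higher at 3 days and 7 lower and 2 higher at 7 days. Their median summed level was 17255 CPM in PMSC, 4052 CPM at 3 days and 7231 CPM at 7 days, and their part in the members' counts was not tested. Between 3 and 7 days 1 was higher (Gas1) and 1 lower (Hhip), beside 18.6% and 17.4% of all genes, which is near the background. The Gas1 call rested on PMSC-MF-7d replicate 1, without which the counts were 0 higher and 2 lower, Hhip and Gli2.

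In stellate culture 2 of the genes rose (Boc and Sufu) and 3 fell (Ptch1, Hhip and Gas1), beside 36.0% of all genes higher and 38.5% lower, so that the counts were near the background share. Their median was 0.06, against −0.03 for all genes. Between the cultures, 4 were higher in PMSC-MF-7d than in HSC-MF-7d (Gli2, Smo, Boc and Gas1) and 1 lower (Hhip), beside 23.9% and 23.1% of all genes. The Gli2 call was lost without PMSC-MF-7d replicate 1, as given above. With PMSC-MF-3d in place of PMSC-MF-7d the counts were again 4 and 1, beside 27.2% and 27.4%. When the stellate culture change was subtracted from the portal one, none was higher and 6 were lower, beside 31.4% and 29.2% of all genes. The 6 were Gli1 (−7.53, SE 1.42, adjusted p = 0.00014), Gli2 (−5.44, SE 1.11, adjusted p = 3e-04), Gli3 (−1.22, SE 0.26, adjusted p = 0.00052), Boc, Hhip and Smo, of which Hhip reversed and Smo was lost under alternatives as given above. For Gli1 the value was −9.05 without HSC replicate 3 and −6.60 without HSC-MF-7d replicate 2. For Gli2 it was −6.74 without PMSC-MF-7d replicate 1 and −6.08 without HSC replicate 1. Gli1 and Gli2 averaged only 0.407 and 0.235 CPM in fresh HSC, so they had little room to fall in stellate culture.

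Read across both lineages, 3 of the genes fell in portal culture (PMSC-MF-7d against PMSC) and in stellate culture, namely Ptch1, Hhip and Gas1. Sufu was called higher in both, but its portal call was lost under 5 of 16 alternatives. Boc went opposite ways, and Gli1, Gli2, Gli3 and Smo were called in portal culture and not in stellate culture. The difference itself was called for Gli1, Gli2 and Gli3, and that of Smo was lost under most alternatives, as given above. Fresh HSC averaged only 0.407 CPM of Gli1 and 0.235 CPM of Gli2, so a stellate fall of these genes could hardly show. Of all tested genes, 38.1% were higher and 39.0% lower in portal culture, and 36.0% and 38.5% in stellate culture. Joint shares over all genes were not counted, so the joint counts of these 9 genes have no background beside them. Within its group, PMSC-MF-7d replicate 1 had the highest level for 8 of the 9 genes, all but Hhip. Its portal mesenchymal marker sum was the lowest of the group, 6117 CPM against 6590 to 7893 CPM in the other 3 libraries. That sum mixes markers that moved both ways in culture. From 3 to 7 days 4 of the 10 were called higher and 3 lower, beside 18.6% and 17.4% of all genes. HSC replicate 1 was the lowest of its group for 6 of the 9 genes and HSC replicate 3 the highest for 6. The macrophage sum was 7049 CPM in HSC replicate 1 and 1956 to 3474 CPM in the other 3 HSC libraries, and the hepatocyte sum was 15799 CPM in replicate 1 and 3970 CPM in replicate 3. The highest hepatocyte sum, 16667 CPM, was in HSC replicate 2, which was the lowest of its group for 2 of the 9 genes. The part of these markers in the members' levels was not tested.

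**Figure D4:**
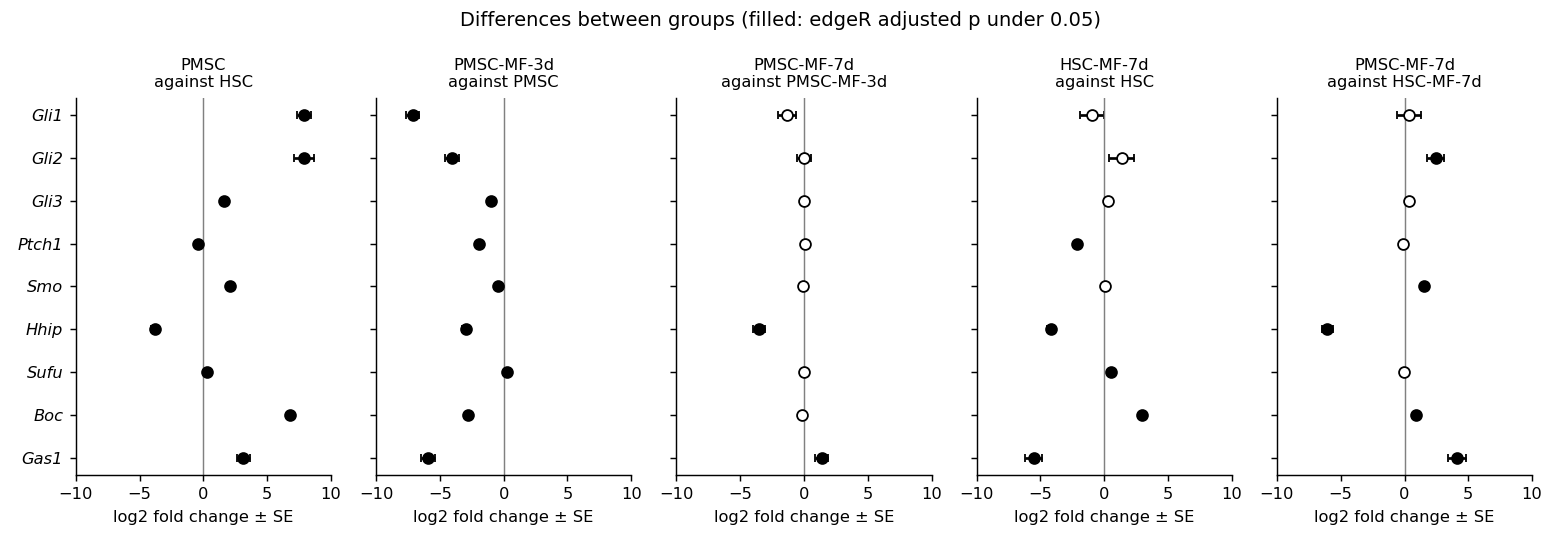
Log2 fold changes with standard errors of the 9 Hedgehog genes in 5 comparisons from the fit of all 20 libraries, filled where edgeR's adjusted p was under 0.05. Gli1, Gli2, Boc and Gas1 lie far to the right for PMSC against HSC and far to the left for portal culture, and Boc lies to the right in stellate culture. The Smo changes in portal culture and the Sufu fresh difference depended on the scaling, with values of 0.08 and −0.08 with library totals.

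The other genes of the pathway were described from lists by role. Among the ligands, Shh had no read in any of the 20 libraries, which allows up to 0.0279 to 0.0520 CPM over the 4 libraries of a group (3 counts, counting error only). Ihh averaged 0.849 CPM in PMSC, with 0 to 1.60 CPM in its libraries, and at most 0.117 CPM in the other groups, and like Shh was below the filter. Dhh, which passed the filter, stood at 9.44 CPM in HSC and 2.55 CPM in PMSC (log2 PMSC over HSC −1.88, SE 0.53, adjusted p = 0.0034). It was lower after culture in both lineages, and each change was called against the fresh cells. Dhh levels were 0.0564 and 0.229 CPM after 3 and 7 days of portal culture and 0.959 CPM after stellate culture. The endothelial and stellate marker sums were also highest in HSC, and their part in the Dhh levels was not tested.

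Of the genes for ligand acylation and release, 4 of 5 were tested, and Disp1, which releases lipid-bound ligand, rose in both lineages: from 16.8 to 122.7 CPM in portal cells by 7 days (log2 2.87, adjusted p = 2.2e-13) and from 15.5 to 110.0 CPM in stellate cells (log2 2.82, adjusted p = 4.3e-13). Scube1, a secreted carrier of the ligand, fell from 54.5 CPM in PMSC to 0.226 CPM at 3 days (log2 −7.88, adjusted p = 1.2e-11) and from 14.2 to 7.89 CPM in stellate culture (log2 −0.85, adjusted p = 0.027). Across this list, 1 was higher and 1 lower at 7 days of portal culture, and 2 were higher and 1 lower in stellate culture, where 38.1% and 39.0% of all genes were higher and lower in the first comparison and 36.0% and 38.5% in the second. With 4 genes these counts do not set the list apart from the background.

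Of 5 further receptors and co-receptors, 1 was higher and 4 were lower at 3 days of portal culture, beside 37.2% and 41.1% of all genes, with a median of −2.76 against −0.07 for all genes. In stellate culture 1 was higher and 2 lower, near the 36.0% and 38.5% of all genes (median −0.14 against −0.03). Cdon, the close relative of Boc, went from 282.8 CPM in PMSC to 41.7 CPM at 3 days (log2 −2.76, adjusted p = 4.4e-13). In stellate cells Cdon was 18.0 CPM fresh and 19.6 CPM cultured (log2 0.12, adjusted p = 0.43), so it did not share the stellate rise called for Boc. Gpc3, a glypican that competes for ligand, fell from 368 CPM in PMSC to 6.58 CPM (log2 −5.80, adjusted p = 9.5e-12) and from 6.13 to 0.288 CPM in stellate culture (log2 −4.36, adjusted p = 3.8e-07). Lrp2, the endocytic receptor megalin, was the member that rose in both cultures, from 0.0499 to 5.44 and 39.9 CPM in portal cells and from 0.150 to 13.1 CPM in stellate cells.

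Among 14 genes of the cilium and of Smo transduction, 3 were higher and 8 lower at 3 days of portal culture (37.2% and 41.1% of all genes), and again 3 higher and 8 lower in stellate culture (36.0% and 38.5% of all genes). The medians were −0.54 against −0.07 for all genes and −0.56 against −0.03. Arl13b, a ciliary GTPase, went from 169 CPM in PMSC to 17.9 CPM at 3 days (log2 −3.24, adjusted p = 7.8e-15) and from 38.8 to 20.2 CPM in stellate cells (log2 −0.94, adjusted p = 3.2e-07). Evc, which binds Smo at the base of the cilium, went from 120.5 to 23.3 CPM and from 40.5 to 15.4 CPM, and Ift172, of the ciliary transport complex, from 55.5 to 20.3 CPM and from 38.8 to 13.0 CPM, all called. Tulp3, a carrier of ciliary membrane receptors, was higher in both (log2 0.79 and 0.64). Gpr161, a ciliary receptor that restrains the pathway, rose in stellate culture (log2 1.25, adjusted p = 2.5e-06). Between the cultures at the titled 7 days, 9 of the 14 were higher in portal cells and 1 lower, beside 23.9% and 23.1% of all genes, with a median of 0.43 against 0 for all genes.

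The 15 genes that process Gli proteins or set their stability were on balance lower in PMSC than in HSC, with 2 higher and 11 lower beside 33.6% and 40.1% of all genes, and a median of −0.52 against −0.10. At 3 days of portal culture 4 were higher and 5 lower, near the 37.2% and 41.1% of all genes (median 0.06 against −0.07). At 7 days of portal culture 8 were higher and 3 lower, beside 38.1% and 39.0% of all genes (median 0.22 against −0.00). In stellate culture 5 were higher and 7 lower, near the 36.0% and 38.5% of all genes (median −0.16 against −0.03). Prkaca, the catalytic subunit of the kinase that marks Gli3 for processing, rose from 32.4 to 98.1 CPM at 3 days of portal culture (log2 1.60, adjusted p = 3.4e-12) and from 51.2 to 80.4 CPM in stellate culture (log2 0.65, adjusted p = 1.7e-06). Numb, which helps remove Gli1, fell in both (log2 −0.93 and −1.27).

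Of 13 textbook targets of Gli factors, 4 were higher and 7 lower at 3 days of portal culture, beside 37.2% and 41.1% of all genes, with a median of −1.23 against −0.07. In stellate culture 5 were higher and 6 lower, near the 36.0% and 38.5% of all genes (median 0.03 against −0.03). Those that fell at 3 days included Sfrp1, a secreted Wnt antagonist, from 1676 to 68.4 CPM, Igfbp3, a carrier of insulin-like growth factors, from 3069 to 8.61 CPM, Bmp4, a growth factor, from 104 to 10.8 CPM, and the forkhead gene Foxf1, from 204 to 30.3 CPM. The cell cycle genes Ccnd1 and Ccnd2 rose instead, to 69.2 and 469 CPM at 3 days from 30.3 and 169 CPM. Markers of cycling cells were higher after culture in 4 of 4 genes in both lineages, and their part in the cyclin changes was not tested. In the difference of the culture changes 1 target was higher and 9 were lower, beside 31.4% and 29.2% of all genes, with a median of −1.39 against 0.10. Sfrp1, which fell in portal culture, rose in stellate culture from 0.701 to 6.48 CPM (log2 3.19, adjusted p = 0.0019).

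**Figure D5:**
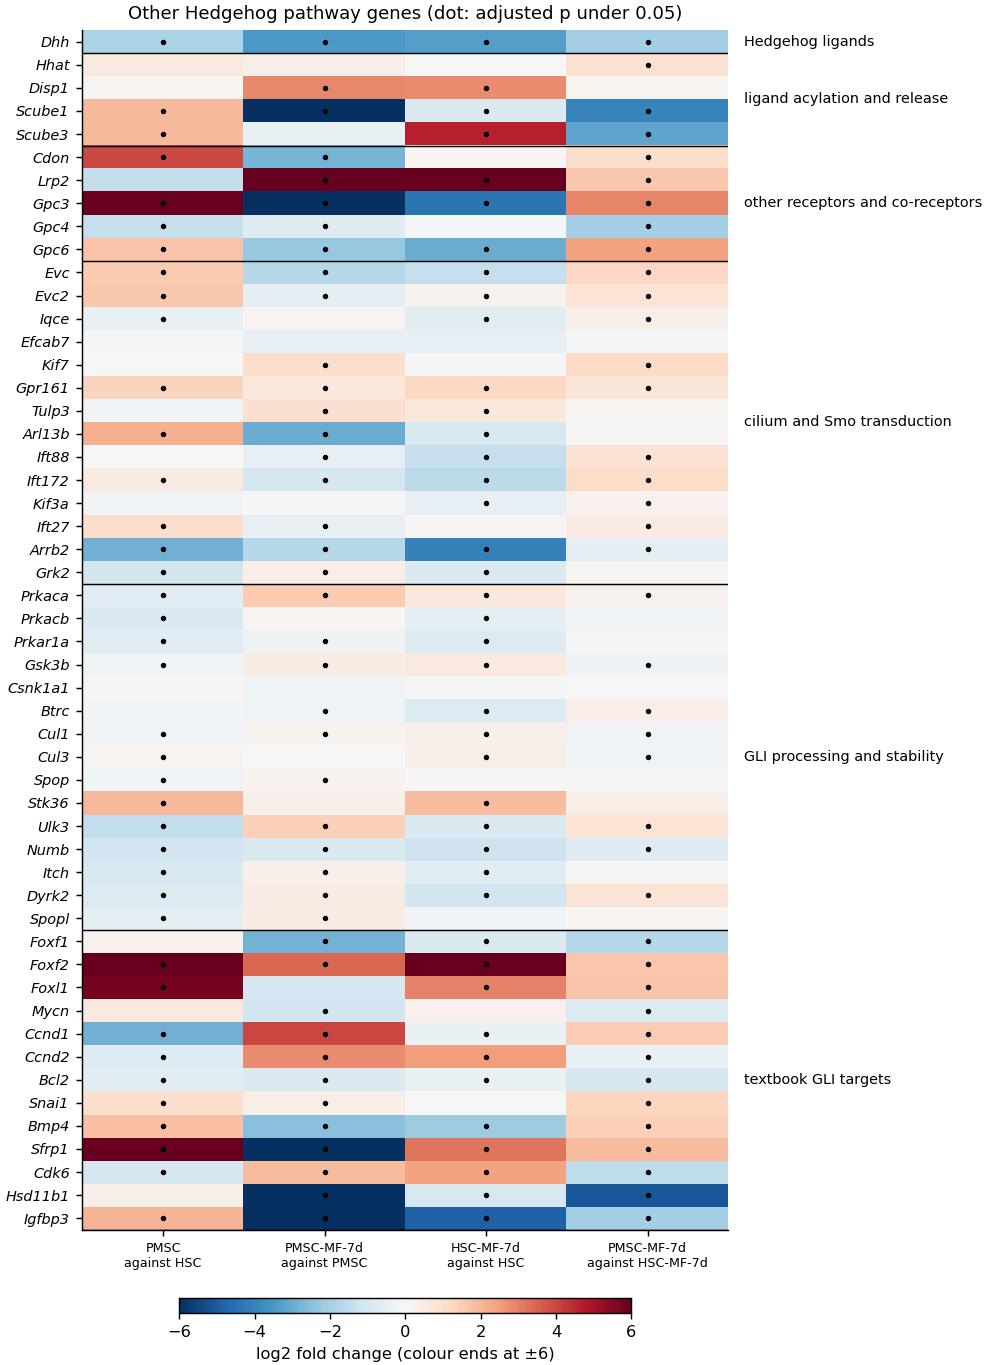
Log2 fold changes of the tested Hedgehog pathway genes outside the 9, in rows grouped by role, for 4 comparisons in columns. Red is higher and blue lower in the group named first, colours end at 6 and −6, and dots mark an adjusted p under 0.05. Dhh, Gpc3, Igfbp3 and Bmp4 are blue in both culture columns, and Disp1, Lrp2, Foxf2 and Ccnd2 are red in both.

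Patterns across all 20 libraries were compared as a description, since the points share 5 groups and the scaling of each library. Over log2 CPM, Gli2 and Boc were the most alike of the 9 genes (Pearson r 0.90, Spearman rho 0.94), followed by Gli3 and Boc (r 0.89) and Gli1 and Gli3 (r 0.88). Ptch1 and Hhip had an r of 0.79, while Gli1, the other textbook target of the group, had an r of 0.44 with Ptch1 and 0.10 with Hhip. Sufu ran against Ptch1 (r −0.81). Among the 12212 genes with at least 5 CPM in some group, the 3 most like each member by Pearson r over 20 libraries were named. For Gli1 they were Fam220a, Tnfaip6 and Nalcn (r 0.96 each), and for Gli2 Cd200, Aspn and Sfrp1 (0.97, 0.96 and 0.95). Gli3 was closest to Asap3, Tmem39a and Zc3hav1l (0.94, 0.93 and 0.93), and Boc to Actn3, Stc2 and Frmd6 (0.98 each).

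For Ptch1 the closest genes were Rtn4rl1, Pear1 and Tbx2 (0.99 each). Tbx2, a T-box transcription factor, averaged 85.4 CPM in PMSC and 129.9 CPM in HSC against 11.4 to 13.3 CPM in the cultured groups. For Hhip they were She, Nrp1 and Gucy1a1 (0.99, 0.99 and 0.98), and by Spearman rho the gene most like Hhip was the endothelial marker Cdh5 (0.98). Gucy1a1, a subunit of the nitric oxide receptor, averaged 635 CPM in HSC and 74.7 CPM in PMSC, and 87.5 and 1.67 CPM in HSC-MF-7d and PMSC-MF-7d. For Gas1 they were Fuz, Cc2d2a and Adamts10 (0.98 each), of which Fuz and Cc2d2a are genes of cilium formation. Smo was closest to Atn1, Shc2 and Rgma (0.98, 0.97 and 0.97), and Sufu to Gtf2ird1, Ptchd4 and Tmem132a (0.95, 0.92 and 0.91).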

How the data were processed

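RNA-seq of fresh and cultured mouse liver mesenchymal cells was analysed from 20 gene tables, 1 per library, grouped by their titles into 5 groups of 4. RNA was isolated and stranded mRNA libraries were made with commercial kits, per the labels' protocols. The authors' expected counts, TPM and FPKM are deposited side by side in each table, with the column names of RSEM per the file headers. STAR 2.5.3a, RSEM 1.2.28, Trimmomatic, FastQC and the mm10 build are named in the submitters' processing notes, without their order. The deposited FPKM values entered no result. Between 0.64% and 0.873% of genes per library had an expected count that was not whole, and counts were rounded to whole numbers.

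In edgeR 4.0.16 (R 4.3.3), filterByExpr kept 14751 of 24848 genes, libraries were scaled by TMM, and 1 robust quasi-likelihood fit held all 20 libraries without covariates. Adjusted p-values are Benjamini-Hochberg over all kept genes, called under 0.05, and SE is the log2 fold change divided by the square root of F. The code was tested on simulated counts. Alternatives were DESeq2-style size factors (RLE), library totals, no filter, a replicate block, DESeq2 1.42.0, limma 3.58.1 on log2(TPM + 1) and log2(TPM + 0.1), the compared groups alone, each library left out, and PMSC-MF-3d as the portal culture. Exact permutation tests were used for the Gli1 share and the ratio of Ptch1 to Smo, which were chosen after the values were seen. No libraries were duplicates, since the chi-square per gene was at least 3.36 for any pair within a group.

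The 9 genes and all lists were chosen with earlier results of these data known. Named genes are the 9, genes of the pathway lists with at least 5 CPM in their highest group mean or that are ligands, and the 3 genes most alike to each of the 9. Likeness used log2 CPM with a prior count of 2, and left out predicted-gene symbols. Some genes of the lists are not reported here.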

Additional observations from a re-analysis of the deposited data

Results flagged for a closer look

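In 7 of the 45 sets of 4 libraries (9 genes in 5 groups), 1 library stood apart from the other 3 by Dixon's criterion, which chance alone meets in about 1 in 20 sets. Gli2 was 8.94 CPM in PMSC-MF-7d replicate 1 against 0.938 to 1.59 CPM in the other libraries of that group, and Gas1 was 30.7 CPM in the same library against 2.57 to 5.90 CPM. Hhip was 15.9 CPM in HSC-MF-7d replicate 1 against 27.2 to 28.8 CPM, and Gli2 was 0.341 CPM in HSC-MF-7d replicate 3 against 0.637 to 0.684 CPM. Ptch1 was 60.9 CPM in PMSC replicate 3 against 73.6 to 75.5 CPM. Smo was 90.98 CPM in PMSC-MF-3d replicate 3 against 102.3 to 102.4 CPM. Sufu was 24.2 CPM in HSC replicate 1 against 26.8 to 27.1 CPM.

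The culture change differed between the lineages by edgeR's test of the difference (portal less stellate, log2 scale) for 6 genes. The differences were −7.53 for Gli1, −5.44 for Gli2, −1.22 for Gli3, −0.59 for Smo, −2.23 for Hhip and −5.89 for Boc. Those of Smo and Hhip depended on the processing. Gli1 and Gli2 stood at the low end of detection in fresh HSC, so a stellate fall could hardly show for them.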

How the results depend on the processing

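Over 72 values (9 genes in 8 comparisons) and 1230 alternative values, 1129 kept their direction and side of the threshold, 55 lost the call, 14 gained one and 32 changed sign, and 46 of the 72 kept both under every alternative run. The 6 sign changes of a value called in either fit were Sufu for PMSC over HSC (−0.078 with library totals, −0.13 and −0.14 in the TPM fits with pseudocounts 1 and 0.1), Smo at 3 days (0.078 with library totals), and Hhip in the difference of culture changes (1.30 with log2(TPM + 1), 1.26 with PMSC-MF-3d). The other 26, over 11 values, were called in neither fit. With library totals they were Gli3 at 7 against 3 days (−0.012), and Sufu for PMSC-MF-3d over HSC-MF-7d (0.013) and in the difference (0.037). With pseudocounts 1 and 0.1 they were Sufu at 7 against 3 days (0.086 and 0.090) and in the difference (0.065 and 0.072), and Gas1 in the difference (−0.53 with pseudocount 1, and −0.41 with PMSC-MF-3d). Leaving out 1 library, the sign varied at 7 against 3 days for Gli2 (−1.32 to 0.29), Gli3 (−0.036 to 0.089), Smo (−0.26 to 0.0078) and Sufu (−0.060 to 0.025), in stellate culture for Gli1 (−1.84 to 0.61) and Smo (−0.091 to 0.198), for PMSC-MF-7d over HSC-MF-7d for Gli1 (−0.42 to 1.25) and Sufu (−0.085 to 0.018), for PMSC-MF-3d over HSC-MF-7d for Sufu (−0.071 to 0.028), and in the difference for Gas1 (−0.30 to 1.32). The causes were not tested. With the compared groups alone, the count of the 9 genes lower in PMSC than in HSC went to 1. The single gene higher at 3 days than in PMSC, Sufu, went to 0 with RLE factors and DESeq2, and at 7 days to 0 with these and with the groups alone. The single gene higher at 7 than at 3 days, Gas1, went to 0 with library totals, no filter, the replicate block, both TPM fits and the groups alone. In the difference of culture changes, the count higher went from 0 to 1 with library totals, log2(TPM + 0.1) and PMSC-MF-3d, and to 2 with log2(TPM + 1). Leaving out 1 library gave 0 to 1 genes higher in each of the 2 portal cultures against PMSC, at 7 against 3 days and in the difference, and 1 to 2 lower at 7 against 3 days.

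Replicate numbers gave no general pairing: of 40 correlations of same-numbered libraries' deviations (−0.0518 to 0.145), 2 were above 0.1 and 10 were the best for their library. Between PMSC-MF-3d and PMSC-MF-7d the same-numbered values were 0.122, 0.1, 0.00243 and 0.0885 for replicates 1 to 4. The highest with another number were −0.0333, 0.026, 0.0347 and 0.0193, so a pairing of these portal cultures was not excluded. With the replicate block the count lower in the difference went from 6 to 5, and Gas1 at 7 against 3 days was 1.12 (adjusted p = 0.098). Of the 17 values that 1 library moved by over 1.5 times, PMSC-MF-7d replicate 1 moved 10. Of the 27 genes named as most alike, 5 were also among the top 3 by group means and 1 by Spearman rho. Depth limits Gli1 and Gli2 in HSC, which rest on 29 and 15 reads.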
